A study of Mus musculus with 5 samples.

Results

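Epithelial tumour cells with high transcript levels of Npy, Fcgbp, Cp, Cck and Foxi1 were described in single-cell RNA sequencing of mouse mammary tumours. A cell counted as epithelial if Krt8, Krt18 and Epcam together reached at least 15 of every 10000 unique molecular identifiers (UMIs, 1 per captured transcript). Its score was the mean, over the 5 genes, of the natural log of 1 plus the gene's UMIs per 10000. The cells were chosen by that score alone: they lay above the 90th percentile of the epithelial cells of their own library, and are called high-score cells. There were 1097 of them among 10959 epithelial cells and 15958 cells in all, against 9862 other epithelial cells. The share of high-score cells is therefore fixed by the rule in every library and is not a finding.

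The tumours were PyMT tumours, in which the polyoma virus middle T antigen is expressed in the mammary epithelium. Every library comes from this model, and no library of normal mammary gland is among them; the labels give no strain, age, sex or number of animals. A pair of libraries was made from freshly digested tumour on the 10x Chromium platform with its 3' chemistry (fresh 10x 1 and fresh 10x 2), and 1 10x library is titled 24 h (stored 10x), after the digest had been kept overnight at 4 °C, a step that lowered viability per the labels. Another pair was made on BD Rhapsody, where cells settle into microwells and are captured on beads. BD 1 is labelled fresh. BD 2 is titled fresh but its deposited matrix carries a 24 h name, so BD 2 formed a separate group in the main fits. It was on neither side of a storage comparison. In alternatives that grouped BD 2 with BD 1 by its title, it added to the spread behind the storage p-values. Only fresh 10x has 2 libraries, and the labels do not say that these came from separate animals. In the main fits, p-values between groups therefore measure the spread between these 2 libraries. P-values for high-score against other epithelial cells measure how that difference varied between the 5 libraries. Either spread may be technical. Values of the 5 libraries below are given in the order fresh 10x 1, fresh 10x 2, stored 10x, BD 1 and BD 2.

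Npy encodes neuropeptide Y and Cck encodes cholecystokinin, peptide hormones made by neurons and by endocrine cells of the gut, which are stored in granules and trimmed and amidated before release. Foxi1 is a forkhead transcription factor of ion-transporting cells such as the intercalated cells of the kidney and the ionocytes of the airway, where it activates genes of the vacuolar proton pump (V-ATPase), Atp6v1b1 among them. Cp encodes ceruloplasmin, a copper-carrying ferroxidase that helps iron leave cells, and Fcgbp encodes a large secreted protein of mucus that binds the Fc part of IgG. In the mammary gland, luminal progenitor cells marked by Kit, Elf5 and Aldh1a3 give rise to the secretory alveolar cells that make milk, and hormone-sensing luminal cells marked by Foxa1, Areg and Cited1 form a separate branch.

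The 5 genes lie on 5 chromosomes of mm10: Npy at chr6:49822710-49829507 on the plus strand, Cck at chr9:121489824-121495694 on the minus strand, Foxi1 at chr11:34204338-34208089 on the minus strand, Fcgbp at chr7:28071236-28120862 on the plus strand and Cp at chr3:19957054-20009145 on the plus strand. Because the score joins a forkhead factor to the other 4 genes, the 250 bases before the RefSeq start of each gene, and of the V-ATPase gene Atp6v1b1, were searched on both strands for the forkhead core GTAAACA. Its 7 letters stand in 1040 of 32851 RefSeq promoters of this length (3.17%, GRCm38.p6). Those of Foxi1, both hormone genes and Atp6v1b1 are printed 5′ to 3′ on the gene's strand, with a match in capitals; the capitals in Atp6v1b1 are the core read on the opposite strand.
Foxi1 (chr11:34208090-34208339, minus): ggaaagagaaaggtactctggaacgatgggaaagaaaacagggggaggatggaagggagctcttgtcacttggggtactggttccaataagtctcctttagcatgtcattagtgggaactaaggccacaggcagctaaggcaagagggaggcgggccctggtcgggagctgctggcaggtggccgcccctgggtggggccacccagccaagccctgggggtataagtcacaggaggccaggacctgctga
Npy (chr6:49822460-49822709, plus): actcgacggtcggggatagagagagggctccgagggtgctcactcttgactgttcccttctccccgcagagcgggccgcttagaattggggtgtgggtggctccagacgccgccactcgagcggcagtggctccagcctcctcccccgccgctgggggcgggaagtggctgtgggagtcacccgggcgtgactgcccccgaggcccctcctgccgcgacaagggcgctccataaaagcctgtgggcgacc
Cck (chr9:121495695-121495944, minus): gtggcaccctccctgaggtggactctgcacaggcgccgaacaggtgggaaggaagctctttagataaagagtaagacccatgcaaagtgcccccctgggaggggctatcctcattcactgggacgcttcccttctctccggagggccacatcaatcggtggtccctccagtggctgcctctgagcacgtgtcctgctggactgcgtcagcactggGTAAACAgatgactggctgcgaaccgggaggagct
Atp6v1b1 (chr6:83742767-83743016, plus): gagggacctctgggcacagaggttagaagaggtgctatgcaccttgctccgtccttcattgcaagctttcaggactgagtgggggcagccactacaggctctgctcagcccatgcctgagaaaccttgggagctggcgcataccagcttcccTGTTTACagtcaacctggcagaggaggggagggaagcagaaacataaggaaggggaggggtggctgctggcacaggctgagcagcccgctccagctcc
The core was found once before Cck and once before Atp6v1b1, and not in the printed bases of Foxi1 and Npy, nor before Fcgbp or either RefSeq start of Cp. A match describes letters, and no binding was measured.

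Of the 5 genes, Npy had the largest share of its epithelial UMIs in the high-score cells of every library, a share that the rule itself raises. Its level in the high-score cells was 2.71, 3.90, 4.44, 5.74 and 3.68 UMIs per 10000, against 0.0708, 0.217, 0.157, 0.139 and 0.114 in the other epithelial cells. The high-score cells of the 5 libraries held 82.0%, 66.4%, 77.2%, 76.7% and 69.8% of its epithelial UMIs. Yet only 30.7%, 33.6%, 37.0%, 34.0% and 26.5% of them had an Npy UMI. These were 43, 48, 110, 86 and 70 cells, among 1396, 1430, 2971, 2528 and 2634 epithelial cells, so that a small number of cells carried most of the transcript in every library. Single cells reached 72.7 to 167 Npy UMIs per 10000. In cells chosen without Npy, 12.1% to 16.8% had an Npy UMI.

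Cck was sparser still. Its level was 0.577, 0.448, 0.680, 0.956 and 0.832 UMIs per 10000 in the high-score cells and 0.0858, 0.106, 0.122, 0.128 and 0.111 in the others, and 23.5% to 34.0% of the high-score cells had a UMI, against 6.37% to 9.14% of the others. Foxi1 stood at 1.18, 1.95, 2.19, 2.50 and 3.11 against 0.486, 0.762, 0.750, 0.927 and 0.774 UMIs per 10000, and was found in 62.1% to 77.9% of the high-score cells. Foxi1 was thus also widespread in the rest of the epithelium, where 35.7% to 45.3% of the cells had a UMI.

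Fcgbp and Cp were found in most high-score cells. Fcgbp stood at 4.38, 15.8, 7.84, 15.2 and 11.2 UMIs per 10000 against 0.423, 1.17, 0.875, 1.23 and 0.777, and 80.7% to 94.4% of the high-score cells had a UMI. Cp stood at 11, 7.06, 11.6, 23.3 and 24.5 against 2.92, 2.05, 3.73, 6.38 and 5.46, with a UMI in 93.7% to 100% of the high-score cells and 57.9% to 83.9% of the others. For both genes the lowest library of the high-score cells lay above the highest library of the others, as the rule would have it. Fibroblasts of the same libraries, with median depths of 11145 to 17941.5 UMIs against 7876.5 to 11650 in the high-score cells, had an Npy UMI in at most 2.71% of cells, Cck in at most 1.23%, Foxi1 in at most 3.07% and Fcgbp in at most 9.83%. Cp was found in 24.7% to 62.0% of the fibroblasts, so a Cp UMI alone does not mark an epithelial cell.

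The label of Npy, Cck and Foxi1 cells holds only in part. Npy and Cck each had a UMI in a minority of the high-score cells, while Foxi1 had one in most of them. Of the 1097, only 70 (6.38%) had UMIs of all 5 genes, 288 of 4, 537 (49.0%) of 3, 199 of 2 and 3 of a single gene. The largest term of a cell's score was Cp in 59.3%, 21.0%, 49.8%, 57.3% and 65.9% of the high-score cells and Fcgbp in 25.7%, 62.2%, 32.7%, 32.8% and 21.2%. Npy led in 8.30% to 14.1%, Cck in 0.791% to 2.86% and Foxi1 in 0.791% to 3.50%. They are accordingly called high-score cells here, and no cell type name is given. Across the epithelial cells of a library, Pearson correlations of the log values of gene pairs were weak, between 0.000608 for Npy with Cck in fresh 10x 2 and 0.269 for Fcgbp with Cp in BD 2. These are descriptions over cells that share a library and its depth.

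**Figure D1:**
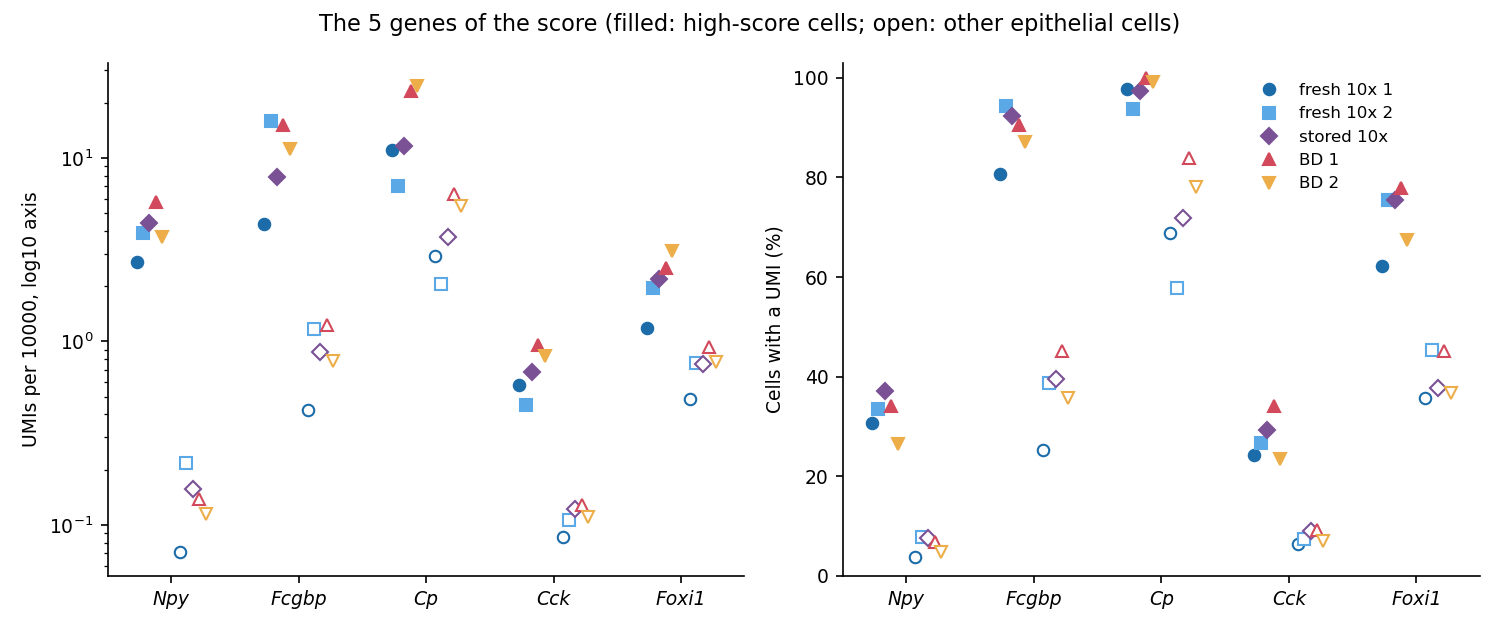
Levels (UMIs per 10000, log10 axis, left) and share of cells with a UMI (%, right) of the 5 genes of the score, 1 point per library, filled for high-score cells and open for the other epithelial cells. All 5 genes are higher in the high-score cells of every library because they chose them; Npy and Cck are found in fewer than 40% of those cells, Cp in more than 90%.

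At the threshold the score had no gap. The lowest high-score cell and the highest other cell were equal to 3 digits in each library, at 0.816, 0.959, 1.03, 1.22 and 1.11, while the median score was 0.951, 1.21, 1.22, 1.41 and 1.35 in the high-score cells and 0.298, 0.313, 0.393, 0.526 and 0.445 in the others. The class is therefore the upper end of a range, and 169 high-score cells and 192 others lay within 0.05 of their library's threshold. When every cell was thinned to 3000 UMIs before scoring, 744 of the 1097 were chosen again (61.6% to 73.1% by library), and 79 had too few UMIs to be scored.

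Library totals ran from 29166129 to 59957945 UMIs. High-score cells were shallower than the other epithelial cells in 5 of 5 libraries. Their median depth was 10717, 11650, 10006, 11149 and 7876.5 UMIs against 12337.5, 13074, 11292, 14017 and 11373.5, a mean difference of -2139.1 (SD 985, n = 5; exact sign-flip permutation test, two-sided, p = 0.063, the smallest p that 5 pairs allow). Their median mitochondrial share differed by 0.191 percentage points (SD 0.782, n = 5; p = 0.6875, same exact permutation test), and 51.1% of the high-score cells of BD 2 and 25.7% of those of BD 1 exceeded 20% mitochondrial UMIs, against 5.71% to 7.07% in the 10x libraries; among the other epithelial cells the shares were 46.1% in BD 2 and 30.1% in BD 1. Markers of other cell types were scarce: the 7 macrophage markers summed to 0.0746 to 0.361 UMIs per 10000 in the high-score cells (0.154 to 0.894 in the others), the 7 T and NK markers to 0 to 0.0952 (0.0245 to 0.0781) and the 6 fibroblast markers to 0.726 to 2.41 (0.693 to 3.83). Nkg7, Gzma and Klrb1c were at 0 UMIs in the high-score cells of all 5 libraries. A doublet caller marked 42 cells and none of the high-score cells, but it marked 0.025% or fewer in 3 libraries and so cannot be relied on there; 12 high-score cells and 210 others held at least 15 UMIs per 10000 of the other-type markers. 10x libraries shared 1 to 5 cell barcodes in pairs and the BD libraries 24.

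Whether the 5 genes go together was examined by leaving each out of the score in turn, choosing cells above the 90th percentile on the remaining 4, and measuring the one left out. In all 5 cases and all 5 libraries the left-out gene was higher in the chosen cells. Npy stood at 1.38, 1.05, 1.12, 1.06 and 1.23 UMIs per 10000 in cells chosen without it, against 0.234, 0.530, 0.560, 0.513 and 0.290 in the remaining epithelial cells. The lowest chosen library lay above the highest remaining one, and edgeR's quasi-likelihood test with library as block gave a log2 fold change of 1.53 (SE 0.172, adjusted p = 1.25e-06). Fcgbp stood at 1.46, 7.60, 3.64, 6.36 and 4.34 against 0.769, 2.17, 1.37, 1.92 and 1.28, with a log2 fold change of 1.60 (SE 0.0898). The Fcgbp groups overlapped between libraries, since fresh 10x 1 was low in both.

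Cp stood at 7.33, 5.46, 8.08, 15 and 14.6 UMIs per 10000 in cells chosen without it against 3.41, 2.28, 4.19, 7.01 and 6.18 (log2 fold change 1.17, SE 0.0527). The groups overlapped between libraries, and Cp was higher in the chosen cells of each. Cck stood at 0.271, 0.231, 0.386, 0.489 and 0.368 against 0.123, 0.129, 0.159, 0.165 and 0.145 (1.30, SE 0.101), with no overlap between the groups. Foxi1 stood at 0.729, 1.39, 1.66, 1.61 and 1.70 against 0.540, 0.825, 0.821, 0.999 and 0.877 (0.84, SE 0.0689), the smallest of the 5 differences, and only fresh 10x 1 kept its groups from separating.

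These 5 differences passed the test in fits in which many genes did: 47.8% of genes in the fit without Npy, 46.2% without Fcgbp, 42.8% without Cp, 48.7% without Cck and 48.7% without Foxi1. The 5 genes had been put together with these data in view, so the differences are no independent support for the grouping. Without the library block, Cp no longer passed (edgeR, log2 fold change 1.18, adjusted p = 0.0608).

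**Figure D2:**
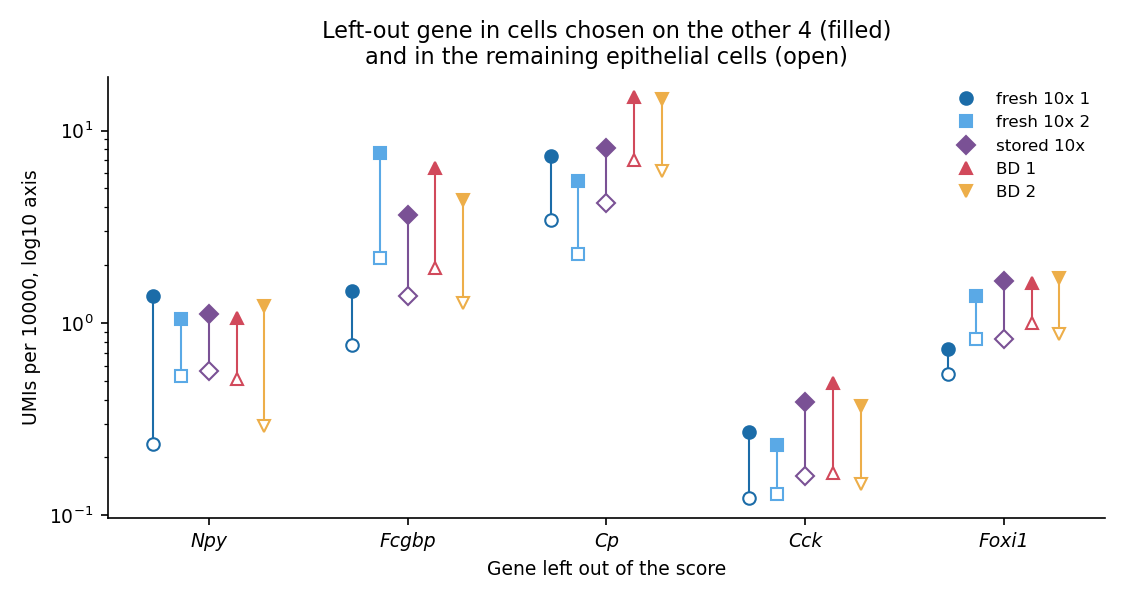
UMIs per 10000 (log10 axis) of each gene in the cells chosen on the other 4 genes (filled) and in the remaining epithelial cells (open), joined by library. The filled point is the upper one in all 25 pairs; for Npy they run from 1.05 to 1.38, above every open point.

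High-score cells were then compared with the other epithelial cells across all genes, leaving out the 5 genes of the score. Summed counts per library entered edgeR with library as block, and 2880 of 12602 tested genes were higher (22.9%) and 3147 lower (25%) at an adjusted p under 0.05. The median log2 fold change of all tested genes was 0.01. Without the library term 1475 genes passed. So large a share is the background for each count below. The depth difference above and the higher dissociation genes described below move with this comparison, and their part in it was not tested.

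Ranked here are genes past the test that moved the same way in all 5 libraries. Their mean was at least 0.5 UMIs per 10000, in the high-score cells for raised genes and in the others for lowered ones. The 15 most raised of those ranked included Spp1, Srgn, Cst3 and Ltf, all of them coding for secreted or granule proteins. Spp1, which encodes the secreted phosphoprotein osteopontin, stood at 353, 227, 248, 101 and 73.3 UMIs per 10000 in the high-score cells against 97.2, 63.2, 67.6, 23.1 and 17.1 in the others (log2 fold change 2.01, SE 0.0535, edgeR adjusted p = 2.6e-13). The 10x libraries were higher than the BD libraries in both groups, and the ratio was alike in all 5. Srgn, the core protein of the granule proteoglycan serglycin, stood at 1.27, 2.12, 1.32, 2.35 and 1.03 against 0.369, 0.35, 0.390, 0.572 and 0.328, with no overlap (2.03, SE 0.0967). Cst3, the secreted protease inhibitor cystatin C, stood at 12.1, 26.2, 15.8, 17.5 and 12.2 against 2.79, 8.73, 5.17, 4.83 and 4.33, again with no overlap (1.78, SE 0.0744). Ltf, the iron-binding milk protein lactoferrin, stood at 40.0, 17.4, 14.6, 8.99 and 11.2 against 12.0, 6.01, 6.05, 4.61 and 3.78 (1.47, SE 0.0794). Ltf was highest in fresh 10x 1 in both groups, so that the groups overlapped although each library showed the difference.

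Pam, the enzyme that amidates the C terminus of peptide hormones including neuropeptide Y and cholecystokinin, was also among the 15. It stood at 0.585, 0.675, 0.806, 1.66 and 1.47 UMIs per 10000 against 0.211, 0.164, 0.259, 0.553 and 0.472 (log2 fold change 1.72, SE 0.0684). BD libraries read it higher, and every library of the high-score cells lay above all libraries of the others. Ramp1, which partners the calcitonin-like receptor, rose by 1.74 on the log2 scale, Scara5, a scavenger receptor that takes up ferritin, by 1.92 and Steap4, a metalloreductase of iron and copper, by 1.48. Rb1, which restrains entry into S phase, stood at 1.26, 1.33, 1.60, 2.50 and 1.77 against 0.491, 0.496, 0.576, 0.918 and 0.758 (1.44, SE 0.0536). The remaining 6 of the 15 were Gm13889 (2.01), the carbonyl reductase gene Cbr2 (1.99), 1500015O10Rik (1.86), Wfdc3 (1.68), Wisp2 (1.65) and Spns3 (1.46). 1500015O10Rik was uneven, with 1.20 against 1.17 UMIs per 10000 in fresh 10x 2 and 0.899 to 2.18 against 0.227 to 0.457 in the other libraries.

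Of the 10 genes most lowered among those ranked, 8 act in the cell cycle: Rrm2 (log2 fold change -3.56), Ube2c (-3.45), Cdk1 (-3.36), Pclaf (-3.29), Cdc20 (-3.20), Birc5 (-3.18), Mki67 (-2.91) and Cenpa (-2.84). Mki67, the proliferation antigen Ki-67, stood at 0.0275, 0.133, 0.146, 0.0674 and 0.0207 UMIs per 10000 against 0.664, 0.814, 0.615, 0.619 and 0.716, and the groups were far apart. Car6, a secreted carbonic anhydrase, stood at 0.675, 0.400, 0.193, 0.315 and 0.244 against 3.91, 5.57, 2.06, 2.37 and 2.63 (-3.13, SE 0.126). Tspan1, a tetraspanin of secretory epithelia, stood at 0.0471, 0.188, 0.0381, 0.0459 and 0.0663 against 0.479, 0.732, 0.462, 0.461 and 0.565 (-2.87, SE 0.161). For both genes every high-score library lay below all libraries of the others.

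**Figure D3:**
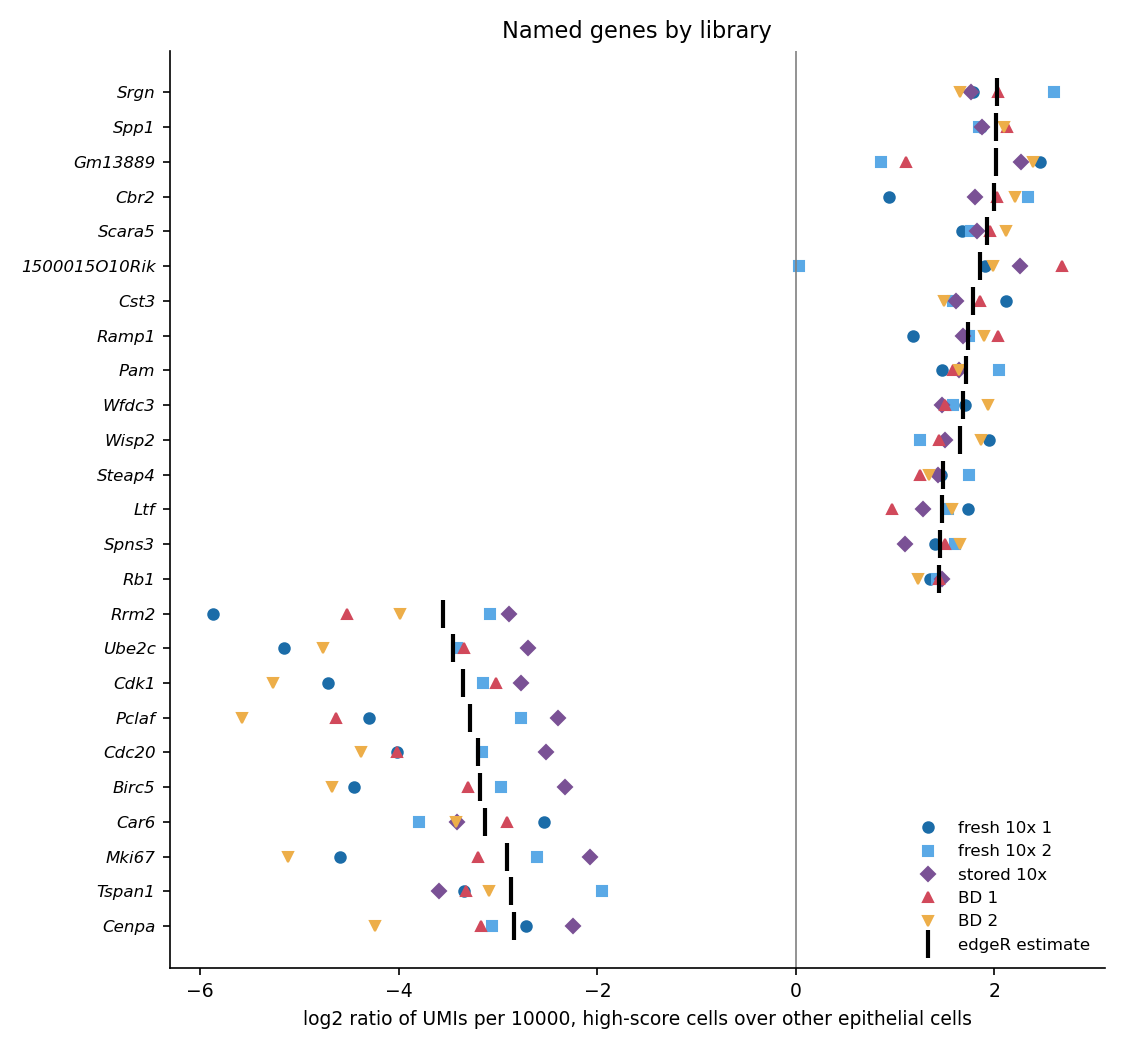
log2 ratio of UMIs per 10000, high-score cells over other epithelial cells, by library (points) for the 15 most raised and 10 most lowered of the genes ranked, with the edgeR estimate as a black bar. Points of a gene lie on 1 side of 0 in every library, and the spread between libraries is wider for the cell cycle genes than for genes such as Spp1 and Rb1.

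Few high-score cells were cycling. Counting a cell as cycling when 14 cell cycle genes together reached 5 UMIs per 10000, 29 of 1097 high-score cells and 1756 of 9862 others were, or 0.714%, 4.90%, 4.04%, 1.19% and 2.27% against 16.6%, 18.0%, 18.5%, 16.5% and 18.7%. All 14 cell cycle genes fell, with a median log2 fold change of -3.07. With cycling cells left out of both groups, 3571 of 11982 genes still passed. Of the 13 cell cycle genes tested, 8 were lower (median of the 13, -0.80), and Top2a, Pcna, Birc5 and Cdc20 did not pass (0.12, 0.15, -0.14 and -0.40). The cells left out had been picked by the same cell cycle genes, so the values of these genes there depend on that cut. Car6 (-3.71), Spp1 (1.68) and Pam (1.48) still passed in that fit.

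The machinery of peptide hormones was present only in part. Of 22 genes listed for processing and granules, 11 had enough counts to be tested, 4 of which were higher and 3 lower (median log2 fold change 0.07). Beside Pam, Qpct rose by 1.18 (SE 0.132), from 0.0741, 0.0930, 0.0821, 0.0654 and 0.0502 UMIs per 10000 in the other cells to 0.118, 0.255, 0.164, 0.156 and 0.112; it closes the N terminus of some hormones into pyroglutamate. The proprotein convertase Furin rose by 0.41. The carboxypeptidases that trim the prohormone's cleaved ends went the other way, Cpe by -1.06 (0.361, 0.130, 0.162, 0.0582 and 0.153 against 0.346, 0.380, 0.347, 0.372 and 0.344) and Cpd by -1.0. Fresh 10x 1 stood apart for Cpe, with no lower level in its high-score cells. Of the endocrine convertases, the high-score cells held 6 UMIs of Pcsk1 and 3 of Pcsk2 in all, and none of the granins Chga and Chgb. A count of 0 among the 15760414 UMIs of the high-score cells allows up to 0.0019 UMIs per 10000 (3 counts, counting error only). Transcripts of endocrine identity were as scarce, and Insm1, Uchl1, Isl1 and Calca had no UMI in the high-score cells. Of the 3 of 13 such genes tested, Ncam1 rose (1.39), Tph1 fell (-3.37, and -2.62 without BD 1) and Eno2 did not pass (0.91, edgeR adjusted p = 0.0602). The high-score cells held no Tph1 UMI in fresh 10x 1, fresh 10x 2, BD 1 and BD 2, so the size of its fall is uncertain.

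Of 23 other peptide hormone genes 6 could be tested, 1 of which rose and 1 fell. Stc1, which encodes the calcium- and phosphate-regulating stanniocalcin 1, rose by 1.12, and Cartpt, a hypothalamic and gut peptide, fell by 6.36. Cartpt stood at 0.00891, 1.95, 0.343, 0.0105 and 0.0410 UMIs per 10000 in the other epithelial cells and at 0, 0.0157, 0.00802, 0 and 0 in the high-score cells. The levels were thus highest in fresh 10x 2 and stored 10x. Without fresh 10x 2 Cartpt was at -5.51 and without stored 10x at -6.96. The high-score cells of fresh 10x 1, BD 1 and BD 2 held no Cartpt UMI, and the others there held little. The size of this fall is therefore uncertain. The receptors were near absent: Npy1r and Npy2r had no UMI in the high-score cells and Npy4r had 1.

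Genes of Foxi1-positive ion-transporting cells were split. Of 28 listed, 10 could be tested, 4 of them higher and 4 lower (median -0.27). Atp6v1b1, the V-ATPase subunit that Foxi1 activates in kidney, stood at 2.90, 3.11, 3.56, 5.10 and 5.31 UMIs per 10000 against 1.70, 1.82, 1.84, 2.90 and 2.54 (log2 fold change 0.93, SE 0.0552). Each library showed it, and the lowest high-score library lay next to the highest of the others. Tfcp2l1, a transcription factor of intercalated cells, rose by 0.93 and Hepacam2, an adhesion molecule, by 1.16 (0.0863, 0.251, 0.173, 0.312 and 0.248 against 0.0483, 0.155, 0.101, 0.10 and 0.0912). Pparg rose by 1.79 at very low levels, of 0.00785 to 0.0248 UMIs per 10000. The sodium, potassium and chloride carrier Slc12a2 fell by 0.55, the carbonic anhydrase Car12 by 0.31, and the pump subunit Atp6v1c2 by 0.61. Ascl3, Cftr, Slc26a4 and Foxi3, which mark ionocytes or intercalated cells, had no UMI in the high-score cells.

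The ubiquitous V-ATPase subunits moved little. Of 17 tested, 7 were higher and 2 lower, with a median of 0.15 against 0.01 for all genes. The accessory subunit Atp6ap2 rose most (0.69), followed by Atp6v1a and Atp6v1e1 (0.42 each), and Atp6v0e2 fell by 0.68. Without cycling cells 4 were higher and 2 lower, and 3 were higher in limma and 1 without the library block.

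Among iron and copper genes, the ferroxidase gene Heph and the iron exporter rose while the transferrin receptor fell. Of 21 tested, 10 were higher and 4 lower (median 0.16); 6 were higher in limma and 4 without the library block. Heph, the membrane ferroxidase related to ceruloplasmin, rose by 1.74 at low levels (0.0196, 0.0236, 0.0321, 0.0214 and 0.0290 against 0.00516, 0.00517, 0.0125, 0.00805 and 0.00653 UMIs per 10000), and Slc40a1, the iron exporter ferroportin, by 0.73. Heph did not pass in limma (0.20, adjusted p = 0.108). Tfrc, the transferrin receptor through which cells take iron up, stood at 0.137, 0.208, 0.110, 0.349 and 0.348 against 0.396, 0.459, 0.358, 0.981 and 1.11 and fell by 1.46 (SE 0.0825). Tfrc was lower in each library, and in the fit without cycling cells as well (-1.05). Transferrin itself (Trf) rose by 0.54, the siderophore-binding lipocalin Lcn2 by 0.50, and the metal importer Slc39a14 by 0.93. The metallothioneins Mt1 and Mt2 fell by 0.67 and 0.94, and ferritin heavy chain Fth1 did not pass (-0.09, edgeR adjusted p = 0.152).

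Genes of mucus and mucosal defence were split, 4 higher and 3 lower of 10 tested among 24. The membrane mucins Muc1 and Muc15 rose by 0.98 and 0.85, and Muc20 by 0.55. The secreted inhibitor Slpi passed as well (0.59), but not when fresh 10x 1, stored 10x or BD 1 was left out, and it was lower in the high-score cells of fresh 10x 2 and BD 2 (0.342 against 0.437 and 0.932 against 1.28 UMIs per 10000). Spdef, a regulator of goblet cells, fell by 1.01, Clca2 by 1.66 and the IgA carrier Pigr by 0.38. The gel-forming mucin Muc5ac had no UMI in the high-score cells and Muc2 had 2.

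All 13 luminal progenitor genes were higher in the high-score cells (median 0.68; 10 of 13 without cycling cells, median 0.52; 5 without the library block). Mfge8, a secreted milk fat globule protein, stood at 26.4, 17.5, 26.5, 18.6 and 17.4 UMIs per 10000 against 8.84, 5.78, 12.4, 8.20 and 6.84 (log2 fold change 1.41, SE 0.0651), with no overlap. Kit, a receptor tyrosine kinase, rose by 0.87, Aldh1a3, an aldehyde dehydrogenase, by 0.79 and Elf5, a regulator of alveolar fate, by 0.36. Aldh1a3 did not pass with cells chosen above the 95th percentile (0.359) or with an epithelial gate of 30 (0.42). Of 11 hormone-sensing genes tested, 4 fell and 3 rose (median -0.62). Foxa1 (-2.09), Areg (-2.80), Cited1 (-2.37) and Prom1 (-1.59) fell, and Wnt5a (0.91), Gata3 (0.50) and Ly6a (0.51) rose. With cycling cells left out, 8 could be tested, 3 of them higher and 2 lower, and the median was 0.0043. Without stored 10x Areg was at -5.50, Foxa1 at -3.09 and Cited1 at -3.19. Estrogen receptor Esr1 did not pass (0.19, edgeR adjusted p = 0.398). Among basal genes 5 of 9 were lower, with Krt17 (-4.91) and Krt5 (-3.94) among them. Oxtr, the oxytocin receptor, was the only one higher (2.06). Without stored 10x Krt5 was at -4.73. The high-score cells held no Krt17 UMI in BD 1 and no Krt5 UMI in fresh 10x 2, so the sizes of these falls are uncertain. Of 9 luminal epithelial genes 7 rose and 1 fell (median of the 9, 0.29), and those that rose included Krt18 and Epcam, which with Krt8 had gated all epithelial cells.

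Milk genes were split: 4 rose and 4 fell of 12 (median -0.11). Kappa-casein Csn3 stood at 177, 229, 230, 285 and 287 UMIs per 10000 against 129, 144, 142, 170 and 169 and rose by 0.72 (SE 0.0458), without overlap. Btn1a1, a milk fat globule protein, rose by 1.12, Wfdc18 by 0.81 and alpha-casein Csn1s1 by 0.83. Wap, the whey acidic protein, fell by 0.99, and Glycam1, Olah and Cel by 2.12, 1.70 and 0.85. Glycam1 was at -2.74 without fresh 10x 2, and Olah at -2.76 without fresh 10x 1 and at -1.09, no longer past the test, without stored 10x. Wap differed between libraries: it stood at 3.57 against 3.82 in fresh 10x 1 and at 0.584 against 2.53 in stored 10x.

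All 10 immediate-early and heat shock genes that tissue dissociation induces were higher in the high-score cells (median 0.69; 9 of 10 without cycling cells, median 0.46; 3 without the library block). Fosb rose by 1.16, from 7.81, 12.0, 7.35, 10.7 and 9.25 to 16.1, 22.3, 17.1, 21.6 and 23.8 UMIs per 10000, with no overlap, and Hspa1a by 1.01. Of 12 interferon genes 7 were higher and none lower (median 0.60), Irf7 by 1.04 and Isg15 by 0.87, but Isg15 stood at 1.25 against 1.31 UMIs per 10000 in fresh 10x 2. Without cycling cells 4 interferon genes were higher. Acute phase genes were split 3 to 3 of 10, with Hp (haptoglobin, 2.14) and C3 (0.91) up and Fgg (-3.64) and Serpina3n (-1.44) down. Hypoxia and glycolysis genes were split 3 to 4 of 13, with Ndrg1 up by 1.03 and Pgk1 and Eno1 down by 0.62 and 0.69.

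Lists of other cell types gave 5 lower and none higher of 6 macrophage genes tested, 4 lower and none higher of 6 fibroblast genes, 1 lower and none higher of 2 endothelial genes, 2 lower and none higher of 3 tuft cell genes, and no call for the 1 T and NK gene tested. Of the mural list Notch3 was the only gene higher, and of the mast and plasma list Kit was, both also luminal progenitor genes here. The plasma cell genes Jchain, Igkc and Igha were lower, but among the other epithelial cells they were highest in BD 1, and without BD 1 Jchain stood at 0.02 and Igha at 0.43 on the log2 scale.

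**Figure D4:**
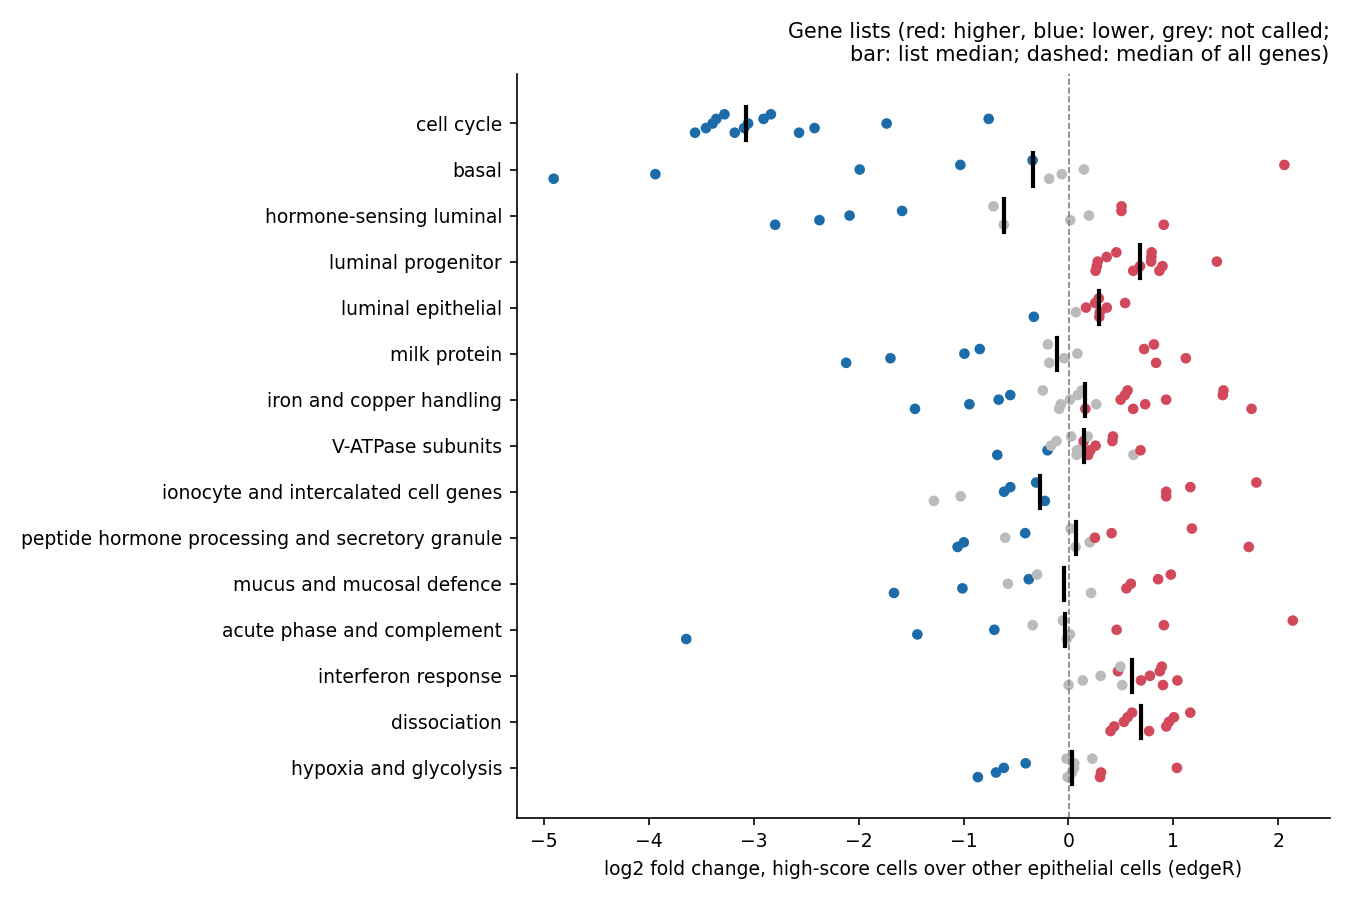
log2 fold change in the high-score cells against the other epithelial cells (edgeR) for each tested gene of 15 lists, with the list median as a black bar and the median of all genes dashed. All tested cell cycle genes lie to the left and all luminal progenitor, interferon and dissociation genes to the right of 0; the remaining lists hold genes on both sides.

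Each gene of the score was also used alone, comparing epithelial cells that had a UMI of it after thinning to 3000 UMIs with those that had none. The fits called 18.3% of genes for Npy, 43.3% for Fcgbp, 52.3% for Cp, 13.8% for Cck and 21.9% for Foxi1, with 41 to 1653 cells holding the gene in a library. In each fit the other 4 genes of the score were higher, by a median of 0.95, 0.88, 1.17, 0.72 and 0.59 on the log2 scale. Pam was higher with each of the 5: by 1.65 with Npy, 0.91 with Fcgbp, 1.20 with Cp, 0.67 with Cck and 0.35 with Foxi1. Atp6v1b1 rose by 0.42, 0.75, 0.56, 0.85 and 0.65 and Tfcp2l1 by 0.46, 0.96, 0.64, 0.87 and 0.65 in the same order. With Npy, Tfcp2l1 did not pass without fresh 10x 2 (0.42) or without BD 1 (0.37). Cell cycle genes were lower in each, 14 of 14 with Npy, Fcgbp, Cp and Foxi1 and 12 of 14 with Cck, by medians of -1.13, -1.53, -1.40, -0.56 and -1.13 for Npy, Fcgbp, Cp, Foxi1 and Cck.

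Elsewhere the 5 genes marked cells of different content. Cells with Cp were high in Ltf (2.09), Slpi (1.68), Aldh1a3 (1.35), Csn2 (1.24) and Krt14 (0.85), and 10 of 12 milk genes rose with none lower. Cells with Foxi1 were low in Slpi (-1.48), Krt14 (-1.27) and Aldh1a3 (-0.79), higher in Hepacam2 (1.05), and did not pass for Spp1 (0.17, edgeR adjusted p = 0.0875), which did pass without fresh 10x 2 (0.27, adjusted p = 0.00224). Cells with Npy were low in 8 of 12 milk genes, Csn2 by 2.52 and Wap by 1.80, and high in Qpct (1.29) and Penk, the enkephalin precursor (1.94, edgeR adjusted p = 0.0185); 3 of 6 fibroblast genes were also higher with Npy (median 1.49), and their part in the result was not tested. Cells with Cck were low in Tspan1 (-2.52), Cpe (-2.20) and Ltf (-0.74) and high in Cst3 (1.84). The gate genes differed in how many cells they chose, and differences between these fits were not tested; the edgeR values stand side by side.

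**Figure D5:**
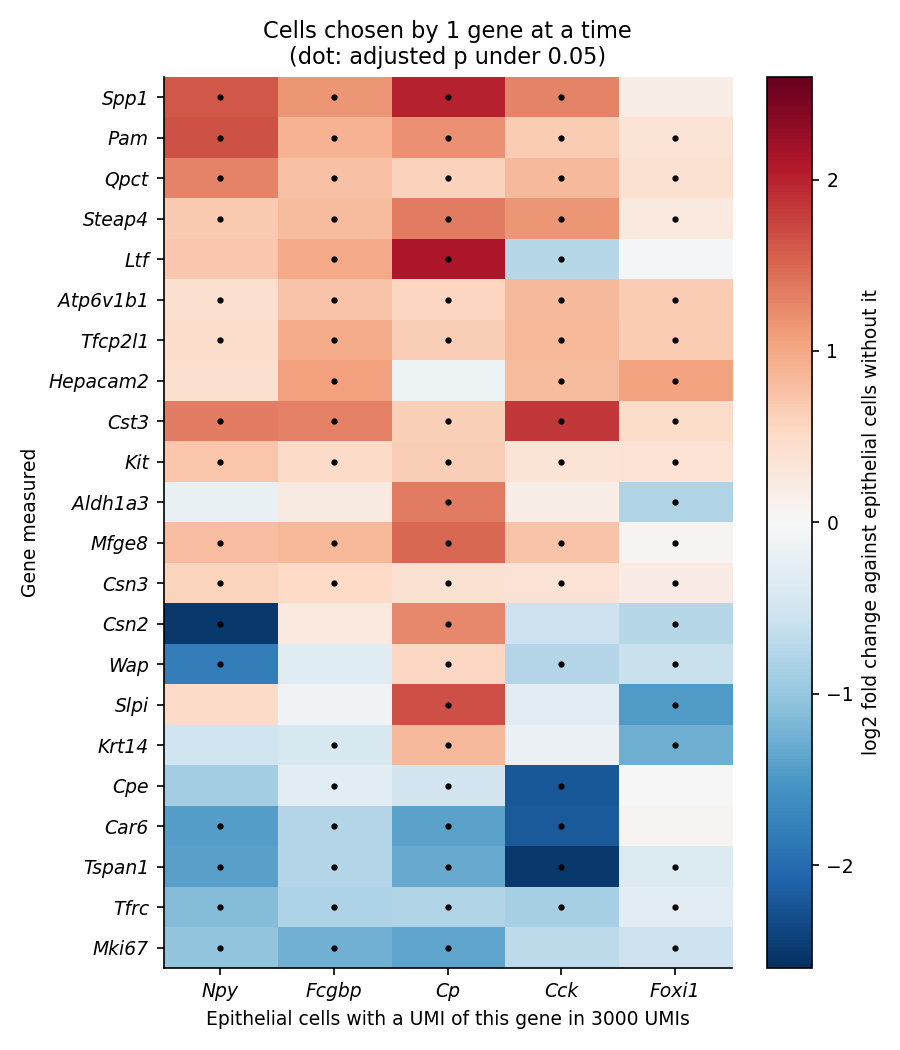
log2 fold change of 22 genes (vertical axis) between epithelial cells with and without a UMI of 1 gene of the score in 3000 UMIs (horizontal axis; edgeR, a dot marks an adjusted p under 0.05). Pam, Atp6v1b1 and Tfcp2l1 are higher in all 5 columns, while Csn2, Ltf, Slpi and Krt14 change sign between columns.

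Other cells rich in luminal genes were set beside them for contrast. A class chosen by Aldh1a3 and Krt7 at the same percentile shared 16.4%, 14.7%, 11.4%, 16.2% and 11% of its cells with the high-score cells, where 9.32% to 9.92% of the other epithelial cells were in it. Cells in both classes were left out. Of 10066 genes tested 1719 (17.1%) were higher and 1789 (17.8%) lower in the high-score cells. Krt17 and Krt14, keratins of basal cells, were lower by 7.84 and 2.77 on the log2 scale, Areg by 5.32, Cited1 by 4.36 and Krt19 by 1.85; without stored 10x Krt17 was at -7.23, Areg at -7.46 and Cited1 at -5.21, and without fresh 10x 1 Areg was at -4.24. BD 1 had no Krt17 UMI in its high-score cells, so the size of the Krt17 difference is uncertain. Krt14 stood at 0.758, 0.283, 0.671, 0.177 and 0.219 UMIs per 10000 in the high-score cells and at 3.70, 3.06, 5.44, 1.49 and 1.20 in the Aldh1a3 and Krt7 cells, with no overlap. Srgn (2.09), Hepacam2 (1.70), Qpct (1.67), Cst3 (1.59), Atp6v1b1 (1.30), Spp1 (1.28), Trf (1.18) and Pam (0.99) were higher in the high-score cells. Ltf went the other way (-0.62, and -0.88 to -0.40 with 1 library left out), but in fresh 10x 1 it was higher in the high-score cells, at 38.0 against 30.3 UMIs per 10000. The luminal epithelial genes, mostly higher than in the other epithelial cells, were lower against this class for all 8 tested (median -0.51). All 14 cell cycle genes were lower against this class too (median -2.32). The 9 dissociation genes called of 10 were all higher (median 0.58). A class chosen by Wif1 and Arg1 held 1.52% to 5.71% of the high-score cells and 10.5% to 11% of the others.

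A further deposited matrix pools fresh 10x cells, 4000 in all, of which 2518 were in none of the sample matrices. Among its 1733 new epithelial cells 174 were chosen by the same rule, and all 25 genes named above moved in the same direction there. Spp1 stood at 354 against 81.7 UMIs per 10000. A left-out gene was again higher in cells chosen on the other 4, with Npy least apart (0.575 against 0.491) and Fcgbp most (6.12 against 1.66). Aldh1a3 went the other way in these cells, at 0.249 against 0.411. Foxa1 was scarce and hardly differed (0.00303 against 0.00327), while Krt17 (0.0364 against 0.267) and Areg (0.0091 against 0.0345) were lower in the chosen cells. The matrix is 1 pool, so these values have no replicate and no test.

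Over all epithelial cells the 5 genes were compared between groups. Summed counts cannot tell fewer cells with a gene from less RNA per cell. Npy stood at 0.352, 0.580, 0.615, 0.553 and 0.353 UMIs per 10000 and Fcgbp at 0.845, 2.62, 1.62, 2.26 and 1.47. The fresh 10x pair differed as much as the groups did, and neither gene passed in stored 10x or BD 1 against fresh 10x. With BD 2 grouped by its title, Fcgbp in BD passed in opposite directions, at -0.59 without fresh 10x 1 (edgeR adjusted p = 0.032) and 0.98 without fresh 10x 2 (adjusted p = 0.00471). Foxi1 (0.560, 0.879, 0.904, 1.04 and 0.930) and Cck (0.138, 0.14, 0.181, 0.189 and 0.159) did not pass either, though the stored 10x fit called 0.736% of 15224 genes and the BD 1 fit 39.4%. Without fresh 10x 2, Foxi1 passed in stored 10x (0.65, edgeR adjusted p = 0.0206) and in BD (0.66, adjusted p = 0.000618), and without fresh 10x 1 Cp passed in stored 10x (0.86, adjusted p = 0.015), each with BD 2 grouped by its title. Cp stood at 3.78, 2.55, 4.57, 7.62 and 6.74, and was higher in BD 1 than in fresh 10x by 1.10 on the log2 scale (SE 0.236, edgeR adjusted p = 0.0127). DESeq2 gave 1.08 with an adjusted p of 0.127 for the same contrast. The BD libraries were the highest in Cp, and their mitochondrial share was also the highest; its part in the difference was not tested. Platform, library and tumour cannot be told apart in single libraries, and the spread in the main fits comes from the fresh 10x pair alone. With BD 2 grouped by its title the BD pair adds to it. Where a fresh 10x library was also left out, the spread comes from the BD pair alone.

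Within the high-score cells, 1.49% of 10937 genes differed between stored 10x and fresh 10x in edgeR, 112 higher and 51 lower in the stored library; storage cannot be told apart from library and tumour. The 5 genes most raised were Rps28, Gm10076 (1.93), mt-Atp8, Rps29 and Atp5k. Rps28 stood at 5.69 and 7.97 UMIs per 10000 in the fresh libraries and 33.3 in the stored one (log2 fold change 2.29, SE 0.252), and Rps29, mt-Atp8 and Atp5k rose by 1.70, 1.71 and 1.69. The mt-Atp8 call was lost in DESeq2, with BD 2 grouped by its title and without fresh 10x 2 (1.26). In the other epithelial cells Rps28 stood at 6.56, 8.36 and 38.5; the difference between the rises was not tested. Wap fell by 2.27 and Ltf by 0.99, the latter from 40.0 and 17.4 to 14.6, where fresh 10x 2 was close to the stored library; without fresh 10x 1 Ltf no longer passed (-0.21, with BD 2 grouped by its title). Ly6d (-1.15) and Hspa1a (-1.01) were also lower, the latter not past the test without fresh 10x 2 (-0.32). Wap, Ltf, Ly6d and Hspa1a did not pass in DESeq2, and the last 3 did not with BD 2 grouped by its title; Ly6d also lost its call without fresh 10x 1 (-1.01). DESeq2 called 13 genes, and edgeR 57 with BD 2 grouped by its title.

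BD 1 against fresh 10x called 30.9% of the 10937 genes in the high-score cells, 1602 higher and 1774 lower (DESeq2: 612). mt-Nd3 stood at 70.8 UMIs per 10000 in BD 1 against 3.19 and 4.44 (4.12 on the log2 scale), mt-Nd4l rose by 3.23 (4.13 without fresh 10x 1, with BD 2 grouped by its title) and Lalba by 2.49. Rps10 stood at 0.995 against 37.8 and 40.6 (-5.40), Rps2 fell by 3.40, and the nuclear RNAs Neat1 and Malat1 fell by 3.24 and 3.0. Csn2 fell by 3.53 (1.39 against 19.4 and 10.5), but BD 2 stood at 12.3, and with BD 2 grouped by its title the call was lost. In the other epithelial cells mt-Nd3 stood at 71.9 against 3.75 and 4.80, Rps10 at 1.07 against 42.8 and 42.4, and Csn2 at 13.2 against 11.5 and 11.8; whether these gaps differ from those in the high-score cells was not tested.

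Whether the difference between high-score and other epithelial cells changed with the platform was tested directly. An interaction term over the 3 10x and 2 BD libraries passed for 4 of 13621 genes (0.0294%; 962 at an unadjusted p under 0.05), and none of the 25 named genes was among them. All 4 were lower in the high-score cells of the BD libraries. Tes, a focal adhesion protein, stood at 0.371 and 0.352 UMIs per 10000 in the high-score cells of BD 1 and BD 2 against 0.916 and 0.829 in the others, and at 0.385, 0.404 and 0.317 against 0.420, 0.433 and 0.423 on 10x. Gadd45g, a stress-inducible gene, stood at 0.141 and 0.0994 against 0.337 and 0.282 on BD, and at 0.726, 0.510 and 0.423 against 0.641, 0.603 and 0.461 on 10x. They were singled out after their values were seen, as were Cdc73 and Ccl7.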

How the data were processed

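UMI counts per gene and cell were used as deposited by the authors, in 5 library matrices and a pooled fresh 10x matrix; per the submitters' processing notes Cell Ranger 3.0.1 and mm10 were used; the counting steps on BD Rhapsody are not given there. Each gene's counts were summed over the high-score and the other epithelial cells of a library and tested with edgeR 4.0.16 (R 4.3.3; TMM, quasi-likelihood, Benjamini-Hochberg adjusted p under 0.05, library as block). DESeq2 1.42.0 and limma 3.58.1 (log2 of mean UMIs per 10000 plus 0.05) were alternatives. The fit was checked on simulated counts. Scrublet in scanpy 1.11.5 marked doublets (expected rate 0.06). No cell was removed beyond the epithelial gate. Named genes were the 15 highest and 10 lowest fold changes past the test in 1 direction in all 5 libraries, with at least 0.5 UMIs per 10000; other genes came from lists. The members, the lists and the tests were chosen with earlier results of these data known. Sequences are RefSeq's (GRCm38.p6). Library was the block because both cell groups of a library share it; replicate numbers of different platforms share only a number.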

Additional observations from a re-analysis of the deposited data

Results flagged for a closer look

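The difference between high-score and other epithelial cells was not the same on BD Rhapsody and on 10x for 4 genes, by the interaction term of edgeR's quasi-likelihood test. For Tes, a focal adhesion protein, the difference on BD minus that on 10x was -1.01 on the log2 scale (SE 0.149, adjusted p = 0.0164), and for Gadd45g, a stress-inducible gene, it was -1.27 (SE 0.197, adjusted p = 0.0175). For Cdc73, a subunit of the Paf1 transcription elongation complex, it was -0.84 (SE 0.142, adjusted p = 0.0362): high-score cells stood at 0.396, 0.452 and 0.399 UMIs per 10000 in fresh 10x 1, fresh 10x 2 and stored 10x and at 0.374 and 0.427 in BD 1 and BD 2, the other epithelial cells at 0.354, 0.419 and 0.315 and at 0.629 and 0.621. For Ccl7, a chemokine of monocytes, the fitted value was -9.52 (SE 1.65, adjusted p = 0.0457), which depends on the prior count and is no bound, since the high-score cells of both BD libraries held 0 Ccl7 UMIs. On 10x its level was 0.00392, 0.0118 and 0.0702 in the high-score cells and 0.0197, 0.0103 and 0.0698 in the others, and on BD it was 0.0622 and 0.0609 in the others. None of the 4 passed with the score computed at 3000 UMIs per cell or without the library block.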

How the results depend on the processing

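Of 159 recomputed counts of called genes 134 stayed within 1.5 times. The 6027 genes that separated high-score from other epithelial cells became 5042 in DESeq2, 3645 in limma, 3571 without cycling cells and 1475 with no replicate block; the library block pairs the cell groups of a library, and of 108 genes called in that comparison and recomputed singly 57 lost the call in at least 1 alternative, 53 of them without that block and 20 in another. The left-out Cp lost its call there too (1.18). The 4 genes of the platform interaction became 100 with no filter on low counts, 12 in DESeq2, 1 with the score at 3000 UMIs and 0 in edgeR with no replicate block (452 at an unadjusted p under 0.05), and 0 to 19 when 1 library was left out, 0 without BD 1 (937 unadjusted) and 19 without stored 10x. In the high-score cells the stored 10x count of 163 became 13 in DESeq2 and 57 with BD 2 grouped by its title, and the BD 1 count of 3376 became 612 in DESeq2. For cells with Cck it was 1731, and 944 (without stored 10x) to 1885 with 1 library left out.

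Over all epithelial cells, the rule genes depended on single fresh 10x libraries, with BD 2 grouped by its title. Without a fresh 10x library the spread in those fits comes from the BD pair alone. In stored 10x Fcgbp was at 0.90 and Foxi1 at 0.65 without fresh 10x 2, and Cp at 0.86 without fresh 10x 1, the last 2 then past the threshold. In BD 1 Npy turned to -0.17 with BD 2 grouped by its title, -0.42 without cells over 20% mitochondrial UMIs and -0.46 without fresh 10x 1; Fcgbp turned to -0.013 with BD 2 by title and -0.59 without fresh 10x 1, and was at 0.98 without fresh 10x 2, where Foxi1 was at 0.66, these 3 past the threshold. Cp in BD 1 was at 1.08 in DESeq2, no longer past the threshold. Pcna (0.15) and Top2a (0.12) turned without cycling cells, and the mitochondrial difference (-0.0133 percentage points) without cells over 20%. With an epithelial gate of 30, Esr1 was at -0.0215, Fth1 at 0.0522, Igkc at 0.10 and Igha at 0.30, and Igha was at 0.35 in DESeq2. Leaving out 1 library gave -1.77 to 0.43 for Igha and -3.15 to 0.021 for Jchain, the upper values without BD 1. Calls on Krt8, Wap, Aldh1a3, Pigr, Slpi, Cel, Heph, Stc1 and Slc40a1 were also lost in 1 or more alternatives. The causes were not tested. Stored 10x and BD 1 are 1 library each, which limits those comparisons. In the main fit against the other epithelial cells, genes with few UMIs in both cell groups were not tested. A gene with enough UMIs in the other epithelial cells was tested even where the high-score cells held few or none, as for Cartpt, Krt17 and Krt5. The sizes of such falls are uncertain.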
